A study of Arabidopsis thaliana with 9 samples.

Results

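The transcripts described here are 92 Arabidopsis thaliana genes that fell within 2 d on the compound FPX, held their new level to 8 d, and carry a locus code as their symbol. A locus code, such as AT3G22620, gives the chromosome and the place in the order of genes along it, and says nothing of function. Members were chosen from measured values. The rule took the group means of log2(signal + 16) and kept probe sets of 1 gene, named by a locus code, whose 2 d mean was at least 1 below the 0 d mean (a 2-fold fall) and whose 8 d mean lay within 0.5 of the 2 d mean. It found 92 probe sets of 92 different genes, out of 5072 with a locus code and 11228 tested in all. Because these differences chose the members, they are given below as descriptions, with no test.

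The study measured transcripts on Affymetrix arrays in whole wild-type seedlings. Seedlings 4 d old were moved from MS medium to MS medium with 45 µM FPX, a compound that the series' title links to callus and shoot regeneration, and RNA for 3 arrays per group was taken after 0, 2 and 8 d. Which wild-type accession was grown is not stated. Treated seedlings were 2 or 8 d older than those at 0 d, and the 0 d arrays were re-analysed from another series, so treatment, age and any difference between sets of arrays cannot be told apart. The labels only number the arrays of a group, so the spread between them may be technical and not that of separate cultures.

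Callus is a mass of dividing cells that plants form on media rich in auxin and cytokinin, and in Arabidopsis it commonly starts from pericycle-like cells by a course that resembles the start of a lateral root. The seedling it starts from holds leaf, stem and root cells, so transcripts that fall early can come from any of these. In whole seedlings, fewer cells of a type and less RNA per cell cannot be told apart.

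The rule asked for a locus code as symbol, so a lack of other names follows largely from the choice of members. The share without another name over all locus-code probe sets was not counted. The gene table gave 90 of the 92 no name beyond the locus code and clone-based identifiers, so no function is stated for them. It gave 2 of them another name. AT5G48570 is listed as FKBP65 or ROF2, an immunophilin of the FK506-binding family of peptidyl-prolyl isomerases, known from the heat response. AT1G08590 is listed as PXL1 or PXY-like1, a receptor-like kinase related to PXY, the receptor that maintains the vascular meristem. Of the 92 genes, 91 are annotated as protein coding, and AT5G36270 as a transcribed pseudogene. Of all 5072 locus-code probe sets, 26 were not listed as protein coding. Each of the 92 probe sets was of the kind assigned to a single gene by its name ending.

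**Figure D1:**
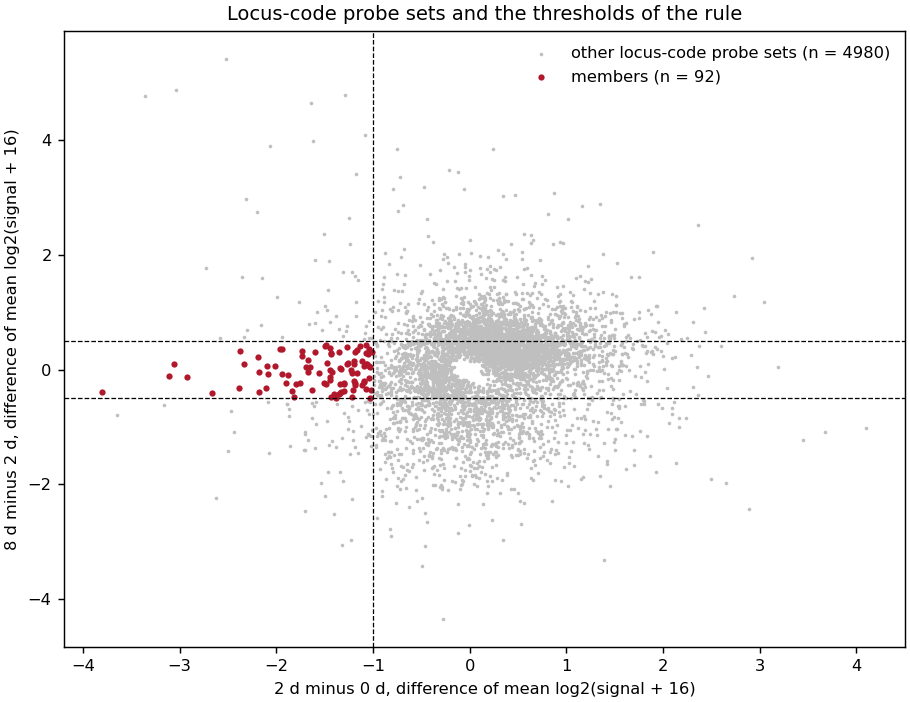
Each point is a probe set named by a locus code; the x axis is the 2 d mean minus the 0 d mean and the y axis the 8 d mean minus the 2 d mean, both of log2(signal + 16). The 92 members (red) lie left of the dashed line at −1 and between the dashed lines at −0.5 and 0.5, with the lowest at −3.80.

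The members fell to about a similar level, relative to their start, at both treated times. At 2 d the mean signal of a member was 6.87 to 49.0% of its 0 d mean, with a median of 35.3%, and at 8 d it was 5.14 to 60.6%, with a median of 32.3%. On the log2 scale the difference of 2 d from 0 d ran from −3.80 to −1.01 with a median of −1.41, and that of 8 d from 2 d from −0.49 to 0.43 with a median of −0.04. Over all 11228 probe sets the median differences were 0.17 and 0.15. Most falls were moderate. They reached −1.5 or lower in 34 members, −2 or lower in 15 and −3 or lower in 3.

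In all 92 members every array at 2 d lay below every array at 0 d, and every array at 8 d did so too. Over all tested probe sets this held for 30.1% at 2 d and for 36.6% at 8 d, and a log2 difference of −1 or lower at 2 d was found in 4.94%. Since the rule used these contrasts, the full counts follow largely from the choice of members. The deposited table held few probe sets that hardly changed (3 had both differences under 0.1). The shares of all tested probe sets therefore describe this table and need not hold for the whole array. In 65 members the 8 d arrays overlapped the 2 d arrays. In 15 every 8 d array lay below every 2 d array, against 33.3% of all tested probe sets, and in 12 every 8 d array lay above, against 46.4%. The bound of 0.5 on this difference, which 50.9% of all tested probe sets met, set these counts in part. At 8 d 78 members were still at least 2-fold below 0 d, as 15.7% of all tested probe sets were, and 14 had come to within that bound, up to −0.64. The difference of 8 d from 0 d is the sum of both differences that the rule bounds, so the rule set these counts in part.

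AT3G22620 had the lowest difference at 2 d. Its signal was 3832, 4158 and 3721 on the 0 d arrays, 279, 217 and 309 at 2 d, and 245, 178 and 179 at 8 d. It differed by −3.80 ± 0.14 (SE from the limma fit) at 2 d, 13.9-fold, and by a further −0.39 ± 0.14 to 8 d, so that 5.14% of its starting signal was left. It was also among the 6 members with the highest signal at 0 d, the only one of the 12 deepest falls that was.

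AT4G36610 read 1109, 1172 and 928 at 0 d, 78.0, 112 and 148 at 2 d, and 83.2, 130.2 and 91.4 at 8 d (−3.11 ± 0.20 at 2 d). AT1G19020 read 1563, 1596 and 1227, then 139.6, 114 and 255, then 141, 156 and 231 (−3.06 ± 0.25). AT4G17280 read 584, 806 and 568, then 76.9, 64.5 and 72.1, then 47.6, 79.8 and 66.8 (−2.92 ± 0.16). In these 3 genes the 2 d and 8 d arrays overlapped, at 10.5 to 11.6% of the 0 d mean at 2 d, and AT4G36610 was at 9.5% at 8 d. The third 2 d array of AT1G19020 and of AT4G36610 was the highest of its group.

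AT4G17215 had 498, 482 and 535 at 0 d, 49.3, 49.8 and 113 at 2 d, and 43.8, 30.6 and 70.5 at 8 d. The third array was the highest at both treated times, and its spread between arrays of a group, 0.419 on the log2 scale, was the largest of any member. AT5G12420 had 1004, 1214 and 869, then 152, 178 and 223, then 168, 118 and 146. AT4G39670 had 752, 903 and 458, then 144, 75.1 and 149, then 163, 149.7 and 145, with 0 d arrays that differed by nearly 2-fold among themselves. The log2 differences of these 3 at 2 d were −2.66 ± 0.26, −2.38 ± 0.16 and −2.38 ± 0.25.

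The other members of the 12 deepest falls lay between −2.34 and −2.11. AT5G10695 went from 784, 953 and 711 to 146, 168 and 131 at 2 d and 129, 179.8 and 172 at 8 d. AT1G05575, the dimmest of the 12 before treatment, went from 255, 357 and 215 to 34.4, 49.6 and 58.1 and then 41.5, 56.8 and 77.5. Values this low are near the bottom of the members' range, whose lowest signal on any array was 25.4, and the added 16 makes the difference of such genes look smaller. AT2G36885 went from 2497, 1773 and 3285 to 677, 463 and 462 and then 566, 464 and 513. AT2G47780 went from 952, 706 and 1063 to 133, 159 and 293 and then 115, 136 and 163, and AT4G24130 from 911, 1078 and 819.7 to 209, 161 and 249 and then 164, 178 and 139. These last 3 genes kept 20.4, 15.2 and 17.1% of their 0 d mean at 8 d.

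**Figure D2:**
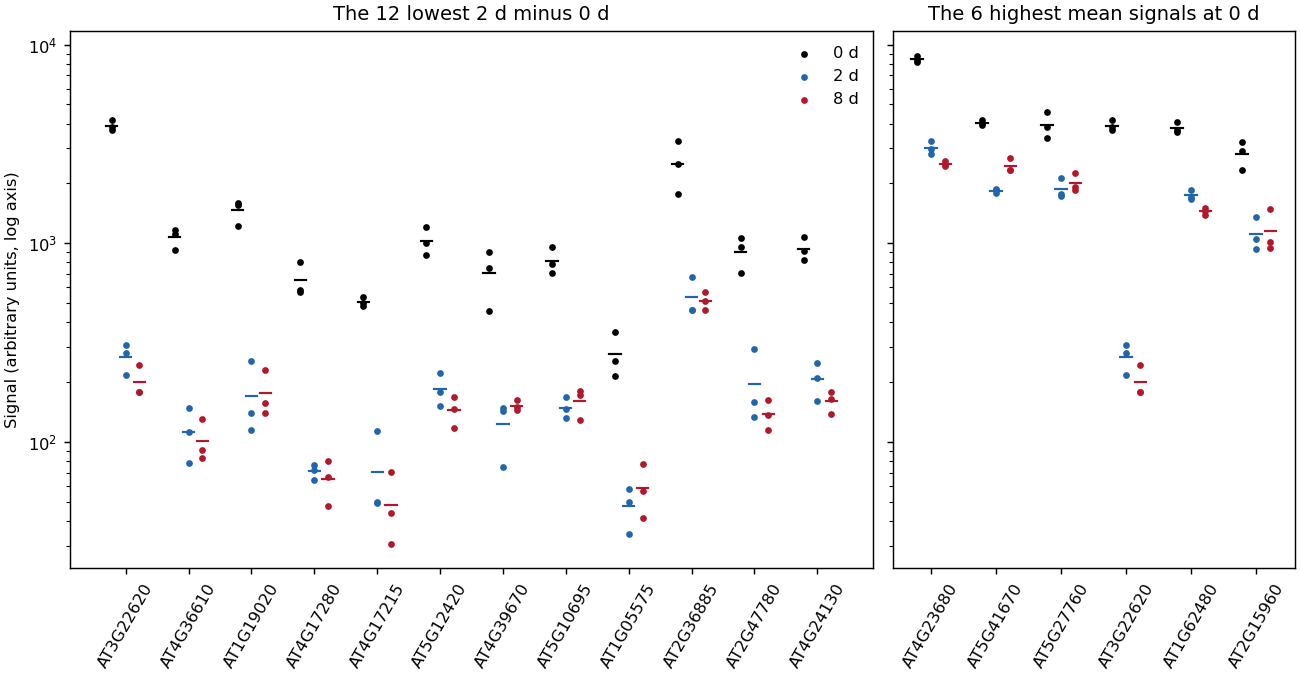
The y axis is the array signal on a log axis and the x axis lists the genes; points are single arrays at 0 d (black), 2 d (blue) and 8 d (red), and short lines are means of 3. In each of the 12 deepest falls (left) and the 6 brightest members (right) the black points lie above all others, and blue and red lie close together, from the lowest values of AT4G17215 and AT1G05575 to the highest of AT4G23680.

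Apart from AT3G22620, the 6 brightest members changed by −1.48 to −1.06 at 2 d. AT4G23680 had the highest signal of all 92, with 8152, 8393 and 8789 at 0 d, 3256, 2810.4 and 2969 at 2 d, and 2459, 2598 and 2494 at 8 d (−1.48 ± 0.08 at 2 d). Its 0 d mean stood at the 98.3rd percentile of all tested probe sets. AT5G41670 had 4029, 3954 and 4166, then 1789, 1850.1 and 1867, then 2332, 2344 and 2689. AT5G27760 had 4565, 3373 and 3856, then 1723, 2124 and 1761, then 1846, 1918 and 2246. These last 2 genes differed by −1.14 ± 0.08 and −1.06 ± 0.13 at 2 d, and they stood at −0.72 and −0.96 at 8 d.

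AT1G62480 had 4053, 3634 and 3724 at 0 d, 1851, 1709 and 1673 at 2 d, and 1504, 1389.6 and 1446 at 8 d (−1.12 ± 0.08 at 2 d). AT2G15960 had 2919, 3226 and 2327, then 1049.8, 1351 and 936, then 1484, 947 and 1012 (−1.33 ± 0.19). The 8 d arrays of AT1G62480 lay below its 2 d arrays, and those of AT2G15960 overlapped them. The lowest mean of any of the 6 at any time was 200.5, that of AT3G22620 at 8 d, which is above the median member at both treated times.

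The falls are given here by the signal at 0 d as a description, because the difference at 2 d holds that same signal with a minus sign and chose the members. In the 23 members with the lowest 0 d means, 120.6 to 274.5, the median difference at 2 d was −1.20 and 1 of 23 reached −1.5. In the next 3 classes of 23, which began at 275.4, 504.9 and 1019.8, the medians were −1.42, −1.73 and −1.56, and 9, 12 and 12 of 23 reached −1.5. The added 16 limits the difference that dim genes can show, and its part in these medians was not tested. Pearson's r of the log2 signal at 0 d with the difference at 2 d was −0.316 over the 92 members, and the shared 0 d term by itself tends to move such a value below 0. The members also share the same 9 arrays and the threshold of the rule. The difference of 8 d from 2 d had an r of 0.108 with that of 2 d from 0 d.

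AT5G48570 (FKBP65, ROF2) was among the deeper falls. Its signal was 609, 617 and 633 at 0 d, 167, 115 and 125 at 2 d, and 158, 105 and 118 at 8 d, so the 0 d arrays were close together and the treated arrays overlapped. The log2 difference was −2.08 ± 0.15 at 2 d and −0.08 ± 0.15 from 2 d to 8 d. AT1G08590 (PXL1) had 314, 276 and 279.6 at 0 d, 113, 111 and 102 at 2 d, and 80.8, 93.5 and 94.8 at 8 d. It differed by −1.29 ± 0.09 at 2 d and by −0.24 ± 0.09 after that, and each of its 8 d arrays lay below each 2 d array. The pseudogene AT5G36270 had 200.2, 199 and 199.8 at 0 d, 77.4, 84.0 and 50.7 at 2 d, and 48.4, 81.6 and 42.1 at 8 d. Its 0 d arrays were nearly identical while its treated arrays were spread, and the times of treatment overlapped.

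**Figure D3:**
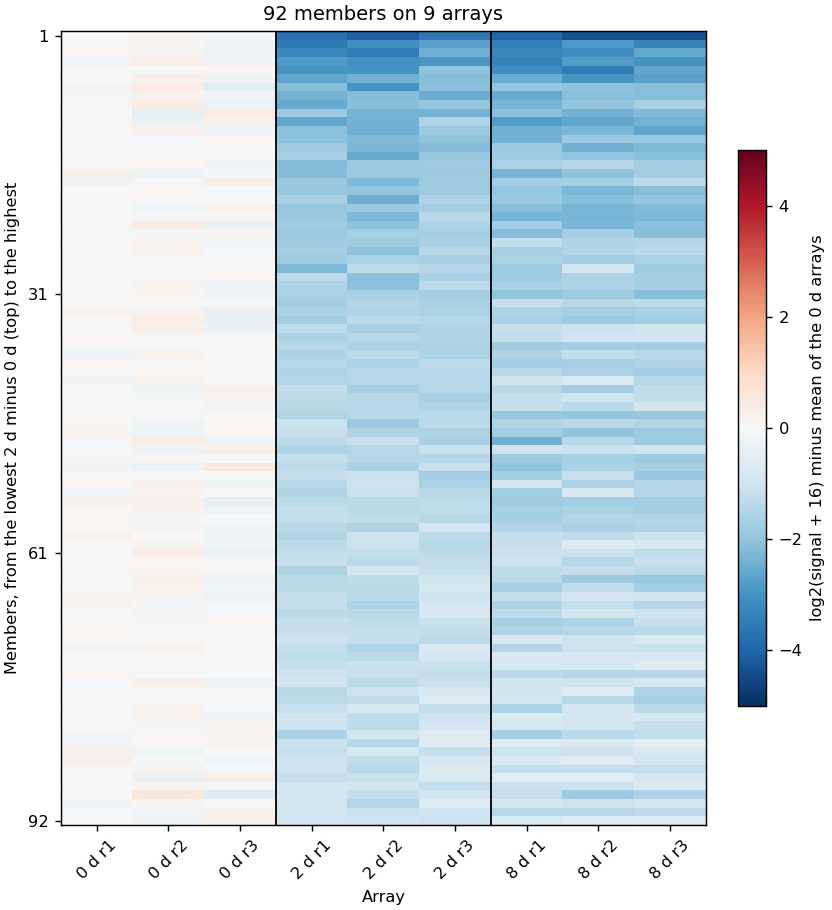
Each row is 1 of the 92 members, ordered by the difference of 2 d from 0 d, and each column an array; colour gives log2(signal + 16) minus the mean of the 0 d arrays, with blue for lower. All treated columns are blue for all members, and the 2 d and 8 d columns have about the same shade in most rows, with medians of −1.39 to −1.42 on the 2 d arrays and −1.48 to −1.58 on the 8 d arrays.

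The members that moved most after 2 d stayed within the bound of the rule. AT5G47530 went lowest from 2 d to 8 d, by −0.49 ± 0.24, with 203, 280.1 and 169.6 at 0 d, 73.3, 87.0 and 58.4 at 2 d, and 27.1, 71.9 and 48.9 at 8 d, so that the treated arrays overlapped. AT2G22510 had 204, 309 and 129, then 97.6, 79.7 and 96.1, then 78.5, 46.3 and 58.7, and AT1G68850 had 299, 346 and 236, then 104, 110.2 and 136, then 103, 70.0 and 66.4. In both of these the 8 d arrays lay below the 2 d arrays by a small margin. AT2G22510 also had 0 d arrays that differed more than 2-fold among themselves.

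In the other direction AT5G05790 went up by 0.43 ± 0.17 from 2 d to 8 d. It was the dimmest member at 0 d, with 107, 120.2 and 134, then 46.7, 34.4 and 70.1 at 2 d and 70.0, 64.1 and 80.6 at 8 d, and the treated arrays overlapped. AT4G36010 went up by 0.43 ± 0.10, from 163, 186 and 173 at 2 d to 210.2, 248 and 262 at 8 d, with 532, 492 and 525 before treatment, and AT5G41670, described above, by 0.41 ± 0.08. In AT4G36010 and AT5G41670 all 8 d arrays lay above all 2 d arrays and below all 0 d arrays. Of the 92 members 50 had a lower mean at 8 d than at 2 d and 42 a higher one, and in 24 the difference was under 0.1 either way.

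The bound of −1 at 2 d ran through closely spaced genes, while the nearest genes on either side of the bounds on the later difference lay further apart. Just inside the bound of −1 at 2 d were AT2G16660 (−1.01), AT4G01410 (−1.02), AT2G40110 (−1.03) and AT2G22510 (−1.03), and just outside it AT1G63720, AT4G13860, AT3G60210 and AT5G40510 (each −0.99). Inside the lower bound from 2 d to 8 d the nearest were AT5G47530, AT2G22510, AT1G68850 and AT1G27030 (−0.49 to −0.48), and outside it AT5G16980, AT3G06950, AT3G50400 and AT1G14730 (−0.55 to −0.56). At the upper bound AT5G05790, AT4G36010, AT5G41670 and AT5G35735 were the nearest inside (0.43 to 0.40), and AT1G54050, AT5G40670, AT2G04800 and AT3G60420 outside (0.52 to 0.55). The standard errors of the members' differences at 2 d were 0.08 to 0.26, so genes on both sides of the −1 bound differ by less than that error.

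Within a group, the same arrays were often the highest or the lowest. At 0 d the second array was the highest for 48 of the 92 members and the third the lowest for 48, where over all tested probe sets the second was the highest for 36.0% and the third the lowest for 36.1%. The order with the second array highest and the third lowest was found in 38 members, and in 21.1% of all tested probe sets. Of the 12 deepest falls 9 had the third 0 d array as their lowest. At 2 d the third array was the highest for 47 members (32.3% of all tested probe sets), and the second the lowest for 39 (36.2%). At 8 d no array was the highest for more than 35 or the lowest for more than 39. These shifts were small, with a median deviation from the group mean between −0.08 and 0.08 on each array.

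**Figure D4:**
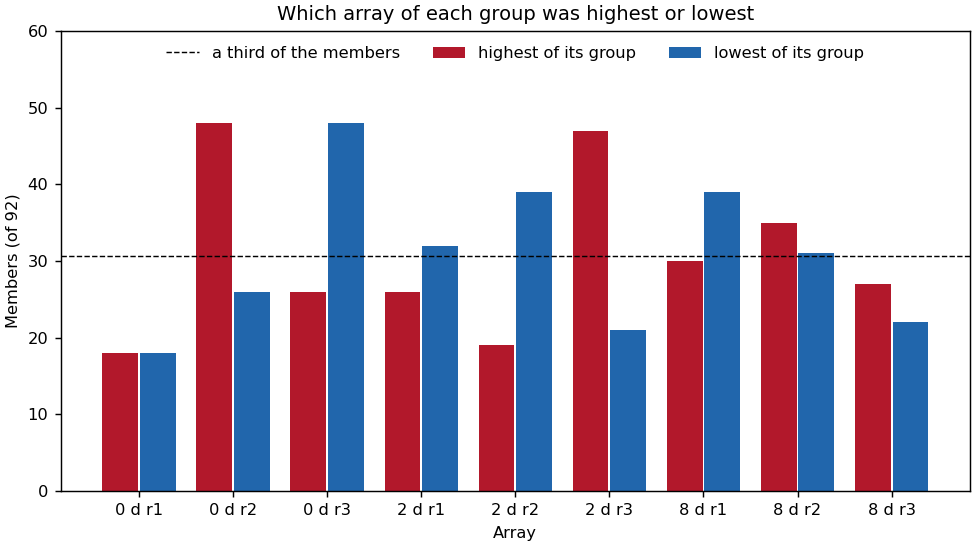
The y axis counts members (of 92) for which an array was the highest (red) or the lowest (blue) of its group, for the 9 arrays on the x axis; the dashed line marks an even share. The second 0 d array and the third 2 d array were most often the highest, for 48 and 47 members, and the third 0 d array was most often the lowest, for 48.

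The spread between arrays of a group was larger for the members than for the table as a whole. Its median over the members was 0.205 on the log2 scale, against 0.13 over all tested probe sets, and it ran from 0.0723 to 0.419, with 13 members above 0.3. By group, the median SD of the members was 0.151 at 0 d, 0.209 at 2 d and 0.157 at 8 d. For all tested probe sets it was 0.12, 0.102 and 0.113. The other early falls had a wide spread at 2 d as well, with a median SD of 0.172 for the locus-code genes that fell further, 0.195 for those that came back and 0.219 for genes with a symbol of their own that met the same thresholds. The members' level at 2 d was also low, with a median signal of 149 against 506 for all tested, and 31 of them had a mean under 100 at that time, while 23 had a mean above 1000 at 0 d. The part of low signal in the wider spread was not tested.

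With each of the 3 array scalings, every member had a lower 2 d mean than 0 d mean. The same held for every member measured with 1 or 64 added in place of 16, without the dimmest probe sets and without each array in turn. These other settings could not have come out otherwise, since in every member all 2 d arrays lay below all 0 d arrays. The median of all tested probe sets was 0.17 at 2 d with the deposited values and −0.01 with array medians set to 0, and the median of the members went from −1.41 to −1.59. The number of genes that meet the rule depended more on the scale. It was 143 with array medians set to 0, of which 85 were among the 92, and 152 after quantile normalization, of which 89 were.

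The 92 were set beside the other locus-code genes that also fell at least 2-fold at 2 d, 207 probe sets with the members included. Another 64 went on down by 0.5 or more to 8 d, and 51 came back up by 0.5 or more. The depth at 2 d was similar in the 3 sets, with medians of −1.41, −1.39 and −1.48, and no test was made of these values, which define the sets. With 16 added a dim gene has less room to fall further, and the part of this in the sets was not tested. The signal at 0 d enters the difference at 2 d that defines these sets, so it is given as a description. Its median was 481 for the members, 1392 for the genes that fell further and 503 for those that came back, against 372 for all locus-code probe sets and 168 for 228 that rose at least 2-fold and held.

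The annotated gene of a member tended to be short. The median length, introns included, was 1658 bp for the 92 members, 1630.5 bp for the genes that fell further and 1385 bp for those that came back. It was 2306.5 bp for all locus-code probe sets with a length and 2799 bp for the 228 held rises. Of the members 66 were shorter than the locus-code median, and they ranged from 570 to 4774 bp. In 61 members, 66.3%, the table gave 1 transcript only, against 51.7% of all locus-code probe sets. The share was 64.1% for the genes that fell further and 66.7% for those that came back, so it was not particular to the members. It was 54.2% for genes with a symbol of their own that met the same thresholds. By these medians all 3 sets of early falls held shorter genes than the locus-code probe sets as a whole. No test was made of this.

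**Figure D5:**
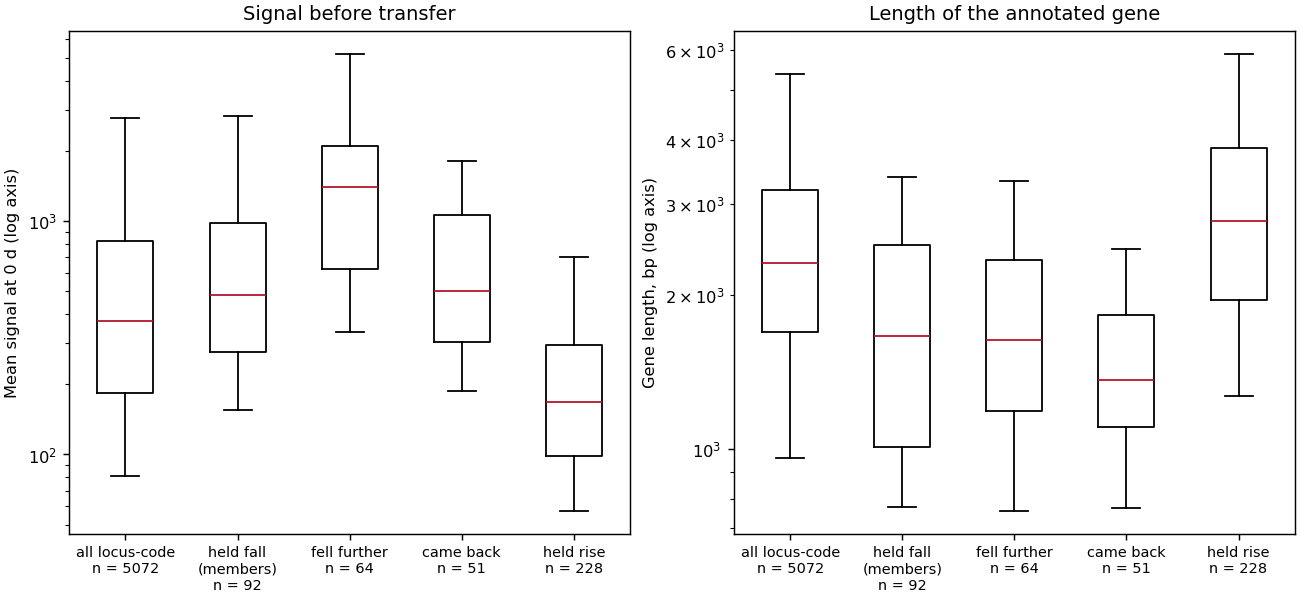
The y axes are the mean signal at 0 d (left) and the length of the annotated gene in bp (right), both on log axes; boxes span the quartiles with the median in red and whiskers reach the 5th and 95th percentiles, for all locus-code probe sets and 4 sets defined by their course. The sets were chosen on differences from the signal at 0 d, so the left panel is a description only; the median length is 1658 bp for the members and 2799 bp for the held rises.

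The members were spread over all 5 nuclear chromosomes. There were 25 on chromosome 1, 17 on chromosome 2, 13 on chromosome 3, 17 on chromosome 4 and 20 on chromosome 5, or 27.2, 18.5, 14.1, 18.5 and 21.7%. The locus-code probe sets as a whole had 26.2, 14.5, 20.6, 14.3 and 24.4% there. Among the members only AT4G24130 and AT4G24160 had at most 2 genes between them. How often other locus-code genes lie this close was not counted. Their courses differed in depth: AT4G24160 had 831, 922 and 712 at 0 d, 422, 333 and 388 at 2 d, and 498, 451 and 451 at 8 d (−1.08 ± 0.11 at 2 d), where AT4G24130 was at −2.11 ± 0.15.

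Genes next to a member mostly did not share its course. Of 94 measured neighbours that were not members, with at most 2 genes between, 4 (4.26%) fell to −1 or lower at 2 d, against 3.01% of the 5889 other probe sets of 1 gene, and their median difference was 0.06 against 0.19. Among the 31 that were the very next gene 2 (6.45%) did so. The 4 were AT1G72070 beside AT1G72060, the antenna protein gene LHCB4.3 beside AT2G40110, AT1G23720 near AT1G23710 and AT5G42830 near AT5G42860. LHCB4.3 was at −2.71 at 2 d and changed by another −0.995 to 8 d on the log2 scale, where AT2G40110 had 692, 857 and 779 at 0 d, 391, 273 and 476 at 2 d and 397, 365 and 385 at 8 d. AT1G72070 and AT5G42830 came back by 1.04 and 1.26 from 2 d to 8 d, while their member neighbours held. AT1G23720 was read by a probe set of a kind shared between similar genes.

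A single member gene had a further probe set in the table. AT4G20830 had 2499.8, 2883 and 2215 at 0 d, 840.4, 588 and 998 at 2 d, and 819, 858 and 779.7 at 8 d on its own probe set (−1.65 ± 0.16). A probe set assigned to several genes, AT4G20830 among them, was at −0.54 at 2 d and lower by a further −0.71 at 8 d. Its other genes share that signal, so it is not a repeat of the same measurement.

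Among genes with a symbol of their own, 24 met the same thresholds. The cysteine proteinase gene CP1 (−4.25 at 2 d) and the methionine sulfoxide reductase gene MSRB9 (−3.79) went lowest. Others were XTH18 (−2.83) and XTH33 (−2.05) of the xyloglucan endotransglucosylase/hydrolase family, the expansin genes EXLA1 (−1.36), EXPB1 (−1.33) and EXLA2 (−1.27), and CSLC12 (−1.16) of the cellulose synthase-like family. The plastid genes rpoB (−1.33), rpoC1 (−1.11) and rpoC2 (−1.01), which encode subunits of the plastid RNA polymerase, met them as well. Of these rpoB was dim, with means of 102.5, 32.5 and 38.8 at 0, 2 and 8 d. The 0 d means of rpoC1 and rpoC2 were 1773.7 and 520.6. BZIP60 (−1.37), a transcription factor gene of the unfolded protein response, also met the thresholds. The median difference of the 24 was −1.33 at 2 d and −0.08 from 2 d to 8 d, and their median signal at 0 d was 494, near the 481 of the members. These examples were picked from the 24 after their values were seen, and how many genes of each family did not fall was not counted.

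The course of the members was close to that of their median over the 9 arrays. Pearson's r of a member with the median member was 0.821 to 0.996 with a median of 0.961, and 61 of 92 had an r above 0.95. Outside the set, the probe sets of 1 gene most like the median member were XTH18 (r = 0.995), AT3G27770 (r = 0.993) and MSRB9 (r = 0.991), each over 9 arrays. AT3G27770 had the same course at a smaller scale, with a difference of −0.48 at 2 d and −0.09 from 2 d to 8 d at a mean signal of 4924 at 0 d. These r values describe courses that are set mostly by the gap between 0 d and the treated arrays.

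Few genes listed as markers of seedling tissues could be set beside these falls. Markers could be found only among the 5981 probe sets annotated to 1 gene, since 5025 had no gene and 222 several. Of 11 marker lists, those of leaf mesophyll, root hair, endodermis, xylem, seed and epidermis had no gene among these 5981. The root list was found as PYK10 and NAI2, 2 of 2. Their sum was 17415 to 17631 before treatment, 13315 to 14282 after 2 d and 13539 to 14710.1 after 8 d. PYK10, the larger part, had means of 13680, 11028 and 10437 (−0.31 at 2 d and −0.39 at 8 d). NAI2 had means of 3872.5, 2641.8 and 3821.9 (−0.55 at 2 d and −0.02 at 8 d). The sum is not read as a measure of root cells. Of the stomatal list 2 of 5 were found, and they took different courses. STOMAGEN had means of 571, 198 and 40.7 (−1.45 at 2 d and −3.39 at 8 d). FMA had means of 122, 129 and 76.6 (0.06 at 2 d and −0.62 at 8 d). Their sum was 632 to 766, then 295 to 365, then 92.4 to 156. STOMAGEN was the larger part of it at 0 d and 2 d. Neither this sum nor STOMAGEN by itself is read as a measure of stomatal cells. SIM was the 1 of 4 trichome genes found (768 to 899, then 659 to 719.8, then 253 to 327), and SWEET11 the 1 of 5 phloem genes (2282 to 2447, then 2044 to 2109, then 1663 to 1971). LBD16, the 1 of 2 genes found for lateral root and callus, read between 121 and 173 at 0 d, between 565 and 626 at 2 d and between 264 and 333 at 8 d. The part of these tissues in the members' falls was not tested.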

How the data were processed

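Per the submitters' processing notes, the authors made the array intensity values with MAS5. The deposited table holds linear intensity for 11249 probe sets on 9 arrays. How the arrays were scaled and the probe sets chosen is not stated. Probe sets that hardly changed are sparse: 3 had both differences under 0.1 and 75 had both between 0.1 and 0.2. Precision is limited by 3 arrays per group, and no detection call was used.

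Of the probe sets 21 were controls and 11228 were tested. The platform annotation gave 1 gene for 5981 (5962 matched to the RefSeq table of TAIR10.1), several for 222 and none for 5025. Values were used as log2(signal + 16), and dim probe sets were kept. A limma 3.58.1 fit in R 4.3.3 with 1 mean per group gave standard errors and whole-table counts at an adjusted p of 0.05. It was also run on simulated arrays with independent noise, which cannot show whether the errors hold for these arrays. Other software was Python 3.11.15, NumPy 2.4.6, pandas 2.3.3 and matplotlib 3.10.9. Settings tried were the added constant, 3 array scalings, a filter on dim probe sets, group medians, leaving out each array and a replicate block.

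Genes named are the 12 lowest differences at 2 d, the 6 brightest at 0 d, those nearest the bounds, the 3 largest movements each way after 2 d, members near each other and the 3 most alike outside. Neighbours, genes with symbols, the pseudogene, AT4G20830 and both members with other names were named after their values were seen. The members and lists were chosen with earlier results of these data known. Gene order and length come from the RefSeq table. Gene descriptions, proteins and promoters were not used here, so the planned protein families and motifs were not run.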

Additional observations from a re-analysis of the deposited data

How the results depend on the processing

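The number of genes that met the rule was 92 with the deposited values. It was 143 with array medians set to 0 and 152 after quantile normalization, against 78 under the scaling on hybridization controls, where 71 of the 92 were kept. It was 44 without the 2807 dimmest probe sets, since 48 of the members were among these, and the number of members whose 0 d and 2 d arrays did not overlap was then also 44. With 1 added in place of 16 it was 96 (84 kept), with 64 it was 76 (63 kept), and with 64 the median difference of the 92 at 2 d was −1.16. Leaving out each array in turn gave 90 to 103 genes. The median of the 92 was then −1.44 to −1.37 at 2 d and −0.13 to −0.01 from 2 d to 8 d. All 92 stayed non-overlapping between 0 d and 2 d each time, which leaving out an array cannot change. Among these 9 settings the most members were lost without the second 2 d array (76 kept). The median from 2 d to 8 d was 0.09 under the scaling on hybridization controls and 0.01 without the dimmest probe sets, and below 0 in the other settings.

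Whether the replicate numbers pair the arrays was not settled. Same-numbered arrays correlated at −0.09 to 0.11 in their deviations from the group means, and 5 of 9 correlated best with their own number. Between 2 d and 8 d, r was 0.061 to 0.106 for the same number and −0.068 to −0.005 for different numbers. In pairs with 0 d it was −0.091 to 0.084 for the same number and −0.093 to 0.109 for different numbers. With the replicate block, limma called 8115 probe sets over the whole table at 2 d against 8160 without it, 10191 against 10217 at 8 d, and 8507 against 8534 between the times. Leaving out single arrays gave 7496 to 8197, 9969 to 10209 and 7919 to 8586. Low signal is a further limit: 31 members had a 2 d mean under 100.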
